A study of Mus musculus with 2 samples.

Results

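Circadian clock genes were followed through the cell types of the mouse retina in 2 single-cell RNA sequencing libraries. The 10 genes were chosen by name from the 25778 genes of the count table: Arntl, Clock, Per1, Per2, Per3, Cry1, Cry2, Nr1d1, Nr1d2 and Dbp. All 10 were present, and the question was whether the libraries stood at different phases of the clock in each cell type. The Ptbp1-Ctrl library came from a Chx10-Cre retina with intact Ptbp1 and the Ptbp1-KO library from a Chx10-Cre;Ptbp1lox/lox retina, both at 30 days of age. Both genotypes carried Chx10-Cre, a transgene that drives a fusion of Cre and GFP in retinal progenitors, so cells descending from other lineages keep Ptbp1. There was 1 library per genotype, so no test was run, and any difference below compares these 2 libraries only. The hour at which each retina was collected was not given in the sources used here, so the genotype, the animal and the hour of collection cannot be told apart.

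The clock is a loop of transcription that runs in nearly every mammalian cell and is paced by light in the eye. ARNTL (also called BMAL1) and CLOCK bind E-box sequences together and switch on the Per and Cry genes, Nr1d1, Nr1d2 and Dbp. PER and CRY proteins then return to the nucleus and block that pair. NR1D1 and NR1D2 (the REV-ERB proteins) repress genes with a ROR element (RORE), among them Arntl, Clock and Cry1, and DBP activates genes with a D-box. In tissues with a running clock, transcripts of the E-box and D-box group therefore peak at a different time of day from those of the RORE group. A shift in time can then move the groups in opposite directions, but need not do so at every hour. In the mammalian retina the clock is known for timing dopamine release, photoreceptor coupling and disc shedding.

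These short sequences show where the letters of such elements lie near the start sites of the genes. RefSeq promoter windows (GRCm38.p6, 250 bases before to 50 bases after a start) were held for 9 of the 10 genes, in 13 windows. Both strands were searched for the E-box CACGTG, the related E-prime-box CACGTT, the D-box TTATGTAA and the RORE (AA, any base, then TAGGTCA). The matches did not overlap each other. Each is printed on the strand of its gene within 30 bases, with the match in capitals. An E-prime-box found on the opposite strand reads AACGTG.
Per1 E-box, chr11:69098771-69098800, plus strand: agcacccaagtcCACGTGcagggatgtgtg
Cry1 E-box, chr10:85185097-85185126, minus strand: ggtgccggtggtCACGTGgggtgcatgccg
Cry1 E-prime-box, chr10:85185116-85185145, minus strand: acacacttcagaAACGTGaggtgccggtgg
Cry2 E-prime-box, chr2:92434218-92434247, minus strand: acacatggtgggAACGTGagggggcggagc
Nr1d1 E-prime-box, chr11:98775388-98775417, minus strand: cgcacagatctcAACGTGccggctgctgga
Per3 upstream D-box, chr4:151044852-151044881, minus strand: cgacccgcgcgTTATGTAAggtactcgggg
Per3 downstream D-box, chr4:151044805-151044834, minus strand: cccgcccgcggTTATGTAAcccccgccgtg
Arntl RORE, chr7:113207528-113207557, plus strand: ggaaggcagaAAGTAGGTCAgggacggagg
The Per3 matches began at positions -205 and -158 from the start, and the Arntl match began at position 28. The same letters occurred in the windows of 8.09% (CACGTG), 5.44% (CACGTT), 1.11% (TTATGTAA) and 0.259% (the RORE) of 27025 genes. The windows of Clock, Nr1d2 and Dbp held none of these letters. A match describes the sequence and does not show that a factor binds there.

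The Ptbp1-Ctrl library held 16421 cells and 32758836 unique molecular identifiers (UMIs, each standing for 1 captured transcript), and the Ptbp1-KO library held 14522 cells and 35328593 UMIs. Ptbp1 itself had 825 UMIs in the control library and 14 in the knockout. The study's methods describe the mice as female, whereas both libraries held UMIs of the Y-linked genes Ddx3y (2891 and 3481) and Uty (6164 and 7085) and few of Xist (5 and 6). The libraries had 63 cell barcodes in common. Levels below are in CPM, for which counts were summed over all cells of a deposited cell type and scaled to a total of 1000000, with exact 95% Poisson intervals in parentheses. Ratios are log2 of Ptbp1-KO over Ptbp1-Ctrl with exact conditional 95% intervals. PCR, dissociation and animal are not covered by them, since they describe counting error only. Müller glia (MG), amacrine cells (AC), bipolar cells (BC), cones and rods were the 5 types with at least 1000000 UMIs in each library. In both libraries the markers of each of the 7 deposited types summed to their highest level in that type. Retinal ganglion cells (RGC, 124 and 97 cells) also carried rod markers at 28909 and 35249 CPM, against 48137 and 43077 CPM in rods. RGC and horizontal cells (HC, 17 and 7 cells) are given only where stated.

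Rods and MG stood at opposite ends of the range for most of the 10 genes. Dbp, the D-box activator whose transcript follows the E-box closely, stood at 18.9 CPM (16.6 to 21.4) in rods of Ptbp1-Ctrl and 382 CPM (366 to 398) in MG. In Ptbp1-KO its levels were 18.4 CPM (16.2 to 20.7) in rods and 386 CPM (369 to 404) in MG. MG thus exceeded rods by 20.2-fold (17.7 to 23.2) in Ptbp1-Ctrl and 21.0-fold (18.5 to 24.0) in Ptbp1-KO. BC (231 and 250 CPM in Ptbp1-Ctrl and Ptbp1-KO), AC (157 and 162 CPM) and cones (80.2 and 42.8 CPM) lay between them, and the intervals of these 5 types did not overlap within either library. HC stood at 370 and 327 CPM of Dbp, from 41 and 14 UMIs, with intervals that overlapped those of MG.

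Arntl, the activator of the loop, was highest in rods. It stood at 219 CPM (211 to 227) in rods of Ptbp1-Ctrl and 223 CPM (215 to 230.5) in rods of Ptbp1-KO. The deposited rod clusters differed, from 299 and 277 CPM in cluster 0 to 90.2 and 91.5 CPM in cluster 3. Cluster 3 (1835 and 972 cells) was thus no higher than cones. In MG Arntl stood at 82.8 CPM (75.6 to 90.5) and 68.4 CPM (61.4 to 76.0). Rods exceeded MG by 2.64-fold (2.40 to 2.91) in Ptbp1-Ctrl and 3.25-fold (2.91 to 3.64) in Ptbp1-KO. Cones (106 and 96.8 CPM), BC (88.7 and 81.2 CPM) and AC (81.3 and 83.0 CPM) were below rods with intervals apart, and their intervals overlapped with each other. Rod markers summed to between 13.8% and 17.4% of their rod level in BC, AC and MG and to 40.7% and 41.2% of it in cones. Subtraction of a library-wide RNA profile, scaled by rod markers outside rods and by MG markers in rods, left 38.1 and 29.3 CPM of Arntl in MG against 213 and 217 CPM in rods. Rods stayed highest after it. The share of the library profile subtracted was 32.1% and 28.3% in MG and 3.74% and 3.80% in rods. More of any gene was therefore taken from MG than from rods. The wider distance was fixed by this scaling, and nothing is read from it about Arntl. The cone level could not be read this way, since the subtraction took all of it.

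Clock, the partner of Arntl, varied little between types. AC were highest, at 188 CPM (169 to 208) in Ptbp1-Ctrl and 193 CPM (179 to 207) in Ptbp1-KO. MG were lowest, at 102 CPM (94.3 to 111) and 96.7 CPM (88.4 to 106). The range between those types was 1.84-fold in Ptbp1-Ctrl and 1.99-fold in Ptbp1-KO. Rods (157 and 161 CPM) and BC (154 and 155 CPM) had overlapping intervals in both libraries.

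The Per genes encode repressors that the ARNTL and CLOCK pair switches on. Per3 was highest in MG, at 239 CPM (227 to 252) in Ptbp1-Ctrl and 230 CPM (217 to 243) in Ptbp1-KO, and lowest of the 5 types in rods, at 35.8 CPM (32.6 to 39.2) and 24.9 CPM (22.4 to 27.6). BC (138 and 121 CPM), AC (117 and 106 CPM) and cones (98.0 and 70.1 CPM) followed MG, and AC overlapped with BC in both libraries. Per1 had the same ends, with 42.5 CPM (37.4 to 48.1) and 61.9 CPM (55.3 to 69.2) in MG and 16.1 and 15.5 CPM in rods. Per2 was highest in BC among the 5 types, at 23.7 CPM (20.8 to 26.9) in Ptbp1-Ctrl and 27.5 CPM (24.4 to 30.9) in Ptbp1-KO. In rods it was near the limit of detection, with 9 UMIs in 10058 cells of Ptbp1-Ctrl and 8 UMIs in 9301 cells of Ptbp1-KO.

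The Cry genes, which encode the partners of PER in repression, differed from each other. Cry1 varied by 1.46-fold between the highest and lowest of the 5 types in Ptbp1-Ctrl and 1.48-fold in Ptbp1-KO, with rods highest at 48.5 CPM (44.8 to 52.4) and 57.9 CPM (54.0 to 61.9). BC (44.8 and 56.1 CPM) overlapped with rods in both libraries. Cry2 was highest of the 5 types in MG, at 95.8 CPM (88.1 to 104) and 83.6 CPM (75.8 to 91.9), and lowest in rods, at 15.0 CPM (13.0 to 17.3) and 15.5 CPM (13.6 to 17.7). The MG level of Cry2 was 6.38-fold that of rods (5.41 to 7.54) in Ptbp1-Ctrl and 5.38-fold (4.57 to 6.36) in Ptbp1-KO.

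Nr1d1 and Nr1d2, the REV-ERB repressors of the RORE, were highest in MG and lowest in rods among the 5 types, as Dbp was. Nr1d1 stood at 219 CPM (207 to 231) and 214 CPM (202 to 227) in MG and at 26.3 CPM (23.6 to 29.2) and 22.1 CPM (19.8 to 24.7) in rods. BC (151 and 162 CPM) and AC (142 and 153 CPM) overlapped, and cones stood at 63.0 and 47.0 CPM. Nr1d2 had a narrower range, from 66.7 CPM (62.3 to 71.2) and 60.02 CPM (56.1 to 64.1) in rods to 139 CPM (129 to 148) and 149 CPM (139 to 160) in MG. BC (134 and 141 CPM) overlapped with MG in both libraries.

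**Figure D1:**
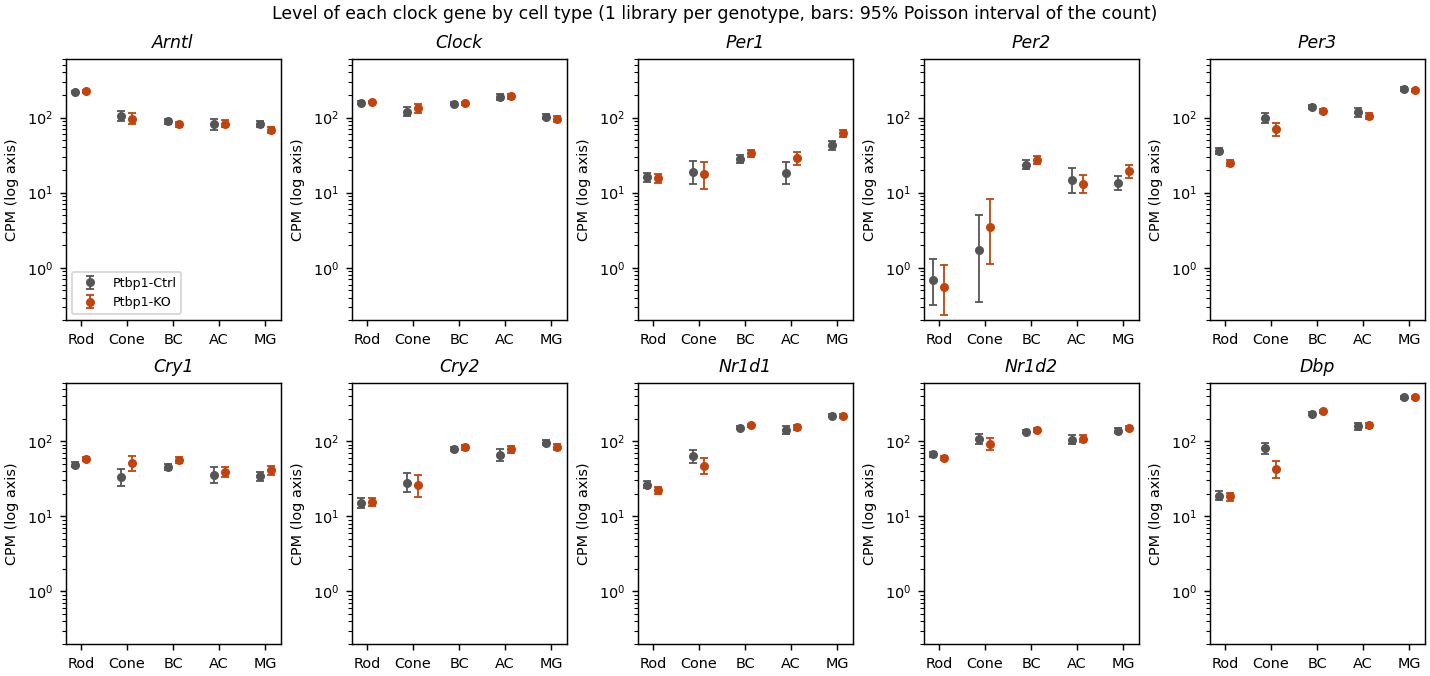
Level of each of the 10 clock genes in CPM (log axis) by cell type, with grey points for Ptbp1-Ctrl, orange points for Ptbp1-KO and bars for exact 95% Poisson intervals of the summed counts. Dbp, Nr1d1, Per3 and Cry2 climb from rods to MG in both libraries, whereas Arntl is highest in rods, at 219 and 223 CPM.

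Across the 10 sums of 5 types in 2 libraries, the genes whose log2(CPM + 1) closely resembled that of Dbp, among 8127 genes with enough counts, included Nr1d1 (Pearson r = 0.990), Irf2bpl (0.990), Plod2 (0.982) and Sipa1l1 (0.981). Cry2 ranked 13th, Nr1d2 19th and Per3 21st, whereas Arntl had r = -0.905 with Dbp. The genes most like Arntl were Esrrb (0.996), Pde6b (0.993), Pde6a (0.993), Rnf207 (0.992) and Bbs9 (0.992). PDE6A and PDE6B form the phosphodiesterase of rod phototransduction. The 10 points share 2 libraries and lie in 5 types, so r here mostly orders the types and is given as a description.

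Between the libraries, most clock genes lay close to a ratio of 0. A gene was counted as past the fold where its log2 ratio was at least 0.5 in size, a 1.41-fold difference, and at least 100 UMIs were held over both libraries. Of the 10 members, 9 had enough UMIs in rods, 7 in cones, 10 in BC, 9 in AC and 10 in MG. In rods 1 of the 9 was past the fold, against 9.07% of 11120 genes (7.66% higher, 1.41% lower), and it was lower in Ptbp1-KO. In cones 2 of the 7 were past it, 1 in each direction, against 6.95% of 5526 genes (3.67% higher, 3.28% lower). In BC none of the 10 was past it, against 4.88% of 11503 genes (2.94% higher, 1.94% lower). In AC 1 of the 9 was higher, against 5.81% of 8651 genes (3.5% higher, 2.31% lower). In MG 2 of the 10 were higher, against 7.76% of 10367 genes (4.5% higher, 3.25% lower). Counts this small move by a single gene, and nothing is read from them about the clock genes as a set. Of the rod genes past the fold, 84.4% were higher in Ptbp1-KO, and this share was 69.8% with TMM scaling and 66.4% with median-ratio scaling. In cones it was 52.9%, against 43.3% and 39.7%. The median ratio of all genes was 0.05 in rods and between -0.02 and 0.01 in the other 4 types, and median-ratio scaling moved every rod ratio by -0.11.

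**Figure D2:**
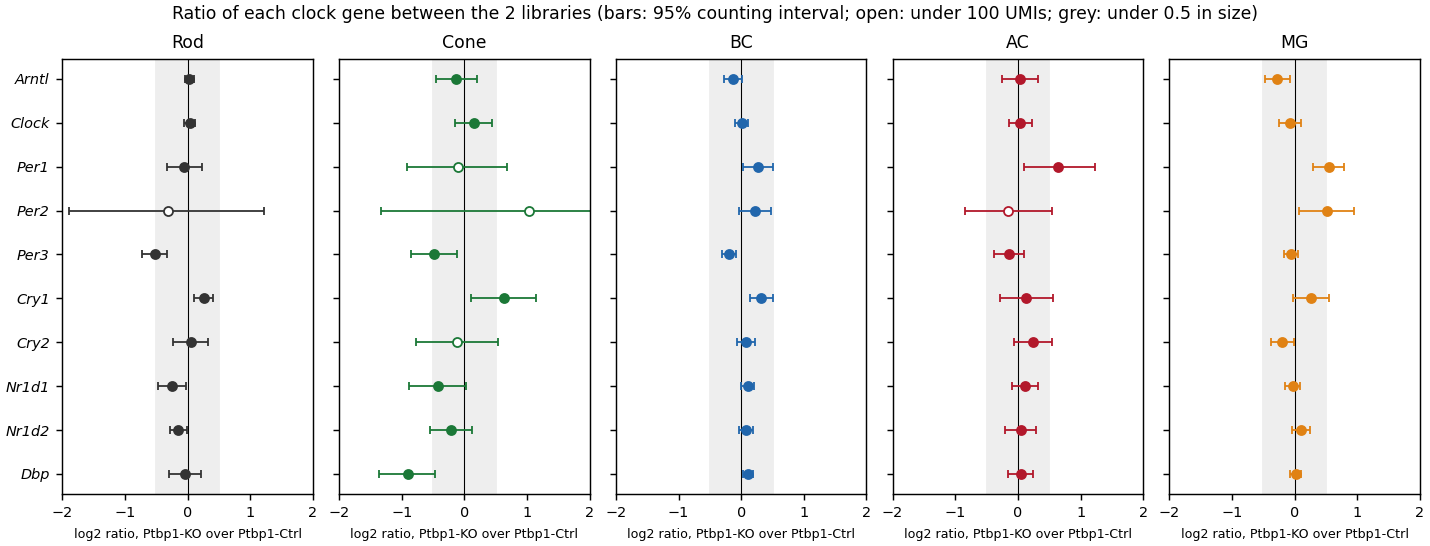
Log2 ratio of Ptbp1-KO over Ptbp1-Ctrl (horizontal axis) for the 10 clock genes in each of 5 cell types, with bars for exact 95% counting intervals, cut at the axis limits. Open points rest on under 100 UMIs and the grey band spans ratios under 0.5 in size, outside of which lie Per3 in rods (-0.52), Dbp (-0.91) and Cry1 (0.62) in cones, Per1 in AC (0.65) and Per1 (0.54) and Per2 (0.51) in MG among the filled points.

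The activators differed little. Arntl had ratios of 0.03 (-0.05 to 0.10) in rods, -0.13 (-0.46 to 0.19) in cones, -0.13 (-0.27 to 0.01) in BC and 0.03 (-0.25 to 0.31) in AC. In MG, 489 UMIs (Ptbp1-Ctrl) and 348 UMIs (Ptbp1-KO) gave a ratio of -0.28 (-0.48 to -0.07), below 0 but inside the fold. Clock lay between -0.08 in MG and 0.15 in cones, with intervals that included 0 in all 5 types. The ratios of Arntl and Clock in rods changed sign with the scaling, to -0.068 and -0.062 with TMM. Rod ratios also join clusters in unlike shares, since cluster 0 held 4614 of 10058 rods in Ptbp1-Ctrl and 5462 of 9301 in Ptbp1-KO. Arntl was at -0.11 (-0.21 to -0.01) within cluster 0. Over the 4 rod clusters it ran from -0.11 to 0.08, with 2 above 0 and 2 below.

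Per1 and Per2 were higher in MG of Ptbp1-KO. Per1 went from 251 UMIs (42.5 CPM) to 315 UMIs (61.9 CPM), a ratio of 0.54 (0.30 to 0.79), and Per2 from 80 UMIs (13.5 CPM) to 98 UMIs (19.3 CPM), a ratio of 0.51 (0.07 to 0.95). In AC, Per1 went from 36 UMIs (18.4 CPM) to 111 UMIs (28.8 CPM), with a ratio of 0.65 (0.09 to 1.23). Per1 is known as the Per gene that responds fastest to light and stress signals. In BC the ratio was 0.27 (0.03 to 0.50) for Per1 and 0.22 (-0.04 to 0.47) for Per2. In rods the ratio of Per1 was -0.05 (-0.33 to 0.23), while that of Per2 could not be read from 9 and 8 UMIs. In cones Per1 had 33 and 25 UMIs and Per2 had 3 and 5, too few for a ratio. Cells were also thinned to 1000 UMIs, and cells with fewer were left out. Those left out were 4155 of 10058 rods in Ptbp1-Ctrl and 3126 of 9301 in Ptbp1-KO, and 57 and 11 MG. After thinning, Per1 in MG stood at 0.35, inside the fold. Per2 stood at 0.83 with under 100 UMIs left, so that neither was counted as past the fold. Per2 in MG also fell short of the fold with TMM (0.49) and median-ratio scaling (0.48). Per1 in AC stood at 0.73 after thinning, again on under 100 UMIs.

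Per3 moved the other way, with a ratio below 0 in all 5 types. In rods it went from 467 UMIs (35.8 CPM) to 361 UMIs (24.9 CPM), a ratio of -0.52 (-0.73 to -0.32). In cones it went from 171 UMIs (98.0 CPM) to 100 UMIs (70.1 CPM), a ratio of -0.48 (-0.85 to -0.12). The ratios were -0.19 (-0.30 to -0.08) in BC, -0.15 (-0.38 to 0.09) in AC and -0.06 (-0.17 to 0.05) in MG. Over the scalings, thinning, subtraction of free RNA and selections of cells that were tried, the rod ratio ran from -0.68 to -0.52 and never passed 0 in any of the 5 types. Per3 (chr4:151003652-151044665, minus strand, mm10) overlaps Camta1 on the same strand in the annotation, so reads in the overlap could not be assigned to either gene with certainty.

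Cry1 was the converse of Per3, with a ratio above 0 in all 5 types. Rods held 632 UMIs (48.5 CPM) in Ptbp1-Ctrl and 839 UMIs (57.9 CPM) in Ptbp1-KO, a ratio of 0.26 (0.11 to 0.41). Cones held 58 UMIs (33.2 CPM) and 73 UMIs (51.2 CPM), a ratio of 0.62 (0.11 to 1.15). BC had 0.32 (0.14 to 0.50), AC 0.13 (-0.29 to 0.56) and MG 0.26 (-0.03 to 0.54). With cells thinned, the ratio was 0.40 in cones, no longer past the fold and on under 100 UMIs, 0.08 in rods and 0.09 in BC, still above 0 but nearer to it. Cry2 lay within 0.23 of 0 in rods, BC, AC and MG, with the widest differences in AC (0.23, -0.07 to 0.54) and MG (-0.20, -0.38 to -0.01), and its sign in rods changed with the scaling.

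Nr1d1 and Nr1d2 were inside the fold in all 5 types. Nr1d1 went from 343 UMIs (26.3 CPM) to 321 UMIs (22.1 CPM) in rods, a ratio of -0.25 (-0.47 to -0.02), and from 110 UMIs (63.0 CPM) to 67 UMIs (47.0 CPM) in cones, a ratio of -0.42 (-0.88 to 0.03). In BC its ratio was 0.11 (0.00 to 0.21), in AC 0.11 (-0.10 to 0.32) and in MG -0.03 (-0.15 to 0.09). Nr1d2 had -0.15 (-0.29 to -0.01) in rods, -0.21 (-0.55 to 0.12) in cones and values between 0.04 and 0.11 in BC, AC and MG. Nr1d1 overlaps Thra on the opposite strand, and Dbp overlaps Sphk2 likewise.

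Dbp had the largest ratio in size of any member with 100 UMIs or more, and it was in cones. There it went from 140 UMIs (80.2 CPM, 67.5 to 94.7) to 61 UMIs (42.8 CPM, 32.7 to 55.0), a ratio of -0.91 (-1.37 to -0.46). In the other types the libraries were close, at -0.04 (-0.30 to 0.22) in rods, 0.11 (0.03 to 0.19) in BC, 0.04 (-0.16 to 0.24) in AC and 0.02 (-0.07 to 0.10) in MG. In MG the counts were 2255 and 1964 UMIs, and the counting interval lay inside the fold on both sides. With cells thinned, the cone ratio was -1.32 on under 100 UMIs. Cones came from 632 cells of Ptbp1-Ctrl and 439 of Ptbp1-KO and formed 1 deposited cluster. Rod markers summed to 19589 and 17764 CPM in cones, BC markers to 260 and 248 CPM and MG markers to 215 and 223 CPM. Dbp is low in rods and high in BC and MG, and the part of transcripts from other types in the cone ratio was not tested.

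Read as groups, the clock genes did not show a single displacement shared by the 5 types. The E-box and D-box group (Per1, Per2, Per3, Nr1d1, Nr1d2, Dbp) had a median ratio of -0.15 in rods, where 5 of 5 members with enough UMIs were below 0, and of -0.45 in cones, with 4 of 4 below 0. Its median was 0.11 in BC (5 above 0, 1 below), 0.04 in AC (4 above, 1 below) and 0.06 in MG (4 above, 2 below). The RORE group (Arntl, Clock, Cry1) had medians of 0.03 in rods, 0.15 in cones, 0.01 in BC, 0.03 in AC and -0.08 in MG. The groups therefore lay on opposite sides of 0 in rods, cones and MG, in the reverse sense in MG from that in the photoreceptors, though both medians in MG were close to 0. The separation was widest in cones. Cry2 was placed in neither group, and Cry1, placed in the RORE group, also had an E-box and an E-prime-box in its window. The hours of collection were not given, so the sides of the medians do not give a phase. In rods the side of the RORE group depended on the scaling, since its median was -0.062 with TMM and -0.080 with median-ratio factors. The rod median of the E-box and D-box group was -0.25 and -0.26 with these factors, and -0.35 in the largest rod cluster. With cells thinned, which kept only the deeper rods, Per1 (0.15) and Dbp (0.06) in rods were above 0. Dbp in rods was also above 0 without the deepest 5% of cells (0.04) and in the largest rod cluster (0.01).

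The deposited clusters divide most types further, and all 21 held at least 50 cells of each library. Cluster 6 mixed types, with AC (293 and 478 cells), RGC (123 and 97 cells) and HC (17 and 7 cells) summed together. Clusters of 1 library share that library and are not replicates of it. Cry1 was above 0 in 9 of the 10 clusters where it had enough UMIs, and in 4 of 4 rod clusters it lay between 0.08 and 0.36. The exception was the mixed cluster 6, at -0.06, whose AC cells alone were at 0.02. Per3 was below 0 in 13 of 18 clusters, with 2 of 2 in rods and 3 of 3 in MG, and its lowest ratio among these was in the largest rod cluster, from 234 UMIs to 202 UMIs (46.0 to 28.7 CPM), at -0.68 (-0.96 to -0.40). Dbp was above 0 in 10 of 17 clusters and below in 7, with no cluster but that of the cones past the fold. In BC its ratios over 8 clusters ran from -0.21 to 0.25. Arntl was above 0 in 7 of 17 clusters, and 3 BC clusters were past the fold in opposite directions, at -0.61 (cluster 11), -0.56 (cluster 10) and 0.58 (cluster 21). Nr1d2 was at 0.67 (0.21 to 1.13) in rod cluster 1 and at -0.35 (-0.56 to -0.14) in rod cluster 0. In the main MG cluster Per1 had 216 and 289 UMIs and a ratio of 0.59 (0.33 to 0.85), and Per2 had a ratio of 0.56 (0.06 to 1.06). The smaller MG clusters had too few UMIs of either gene to be read, so the differences could not be placed among the MG clusters.

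**Figure D3:**
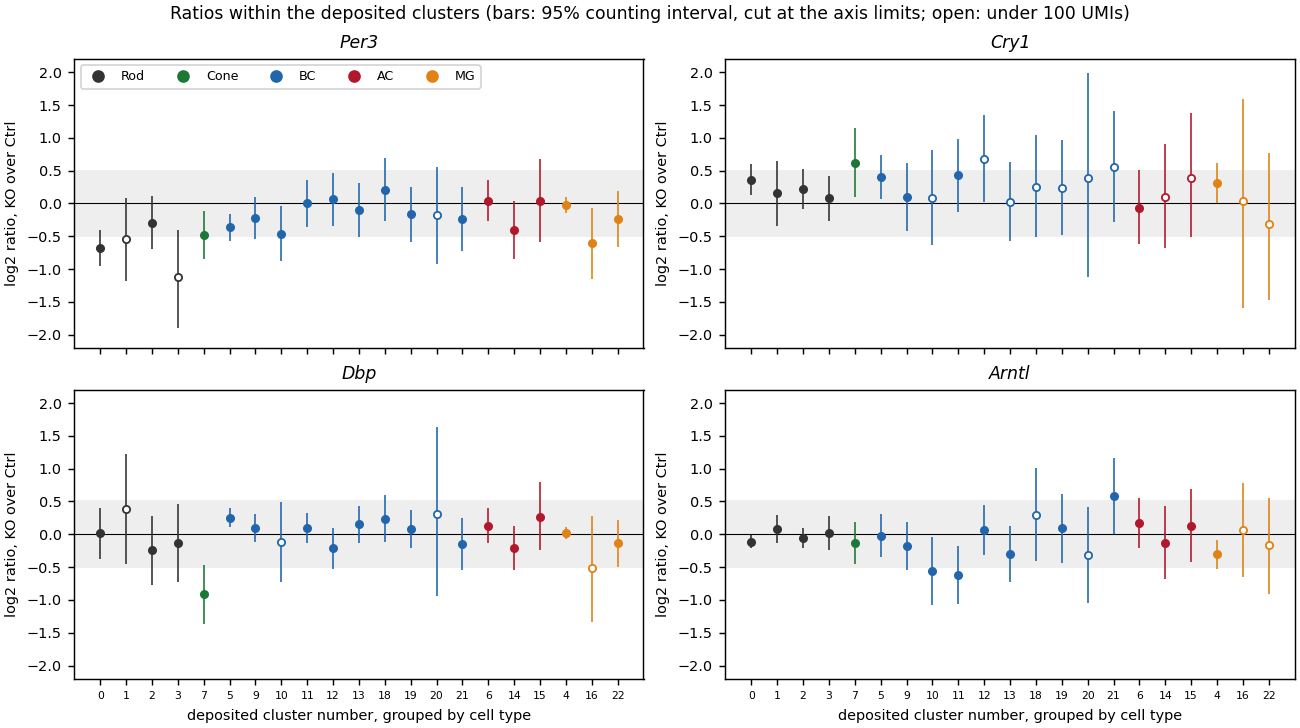
Log2 ratio of Ptbp1-KO over Ptbp1-Ctrl for Per3, Cry1, Dbp and Arntl within each of the 21 deposited clusters, grouped and coloured by the main cell type of the cluster. Bars show exact 95% counting intervals and open points rest on under 100 UMIs. Per3 lies below 0 in 13 of 18 filled points and Cry1 above 0 in 9 of 10, and the only Dbp point past the grey band among the filled ones is that of the cones, at -0.91.

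A further 20 genes of the clock were all in the table. Past the fold were 1 higher and 1 lower of 15 with enough UMIs in rods, none of 17 in BC, 2 higher of 13 in AC and none of 13 in MG, to be read against the shares of all genes given above. Noct, a deadenylase with a strongly rhythmic transcript, went from 62 UMIs (4.76 CPM) to 145 UMIs (10.0 CPM) in rods, a ratio of 1.07 (0.63 to 1.53). It was at 0.50 (0.02 to 1.01) in AC, from 48 to 134 UMIs, and at 0.34 (0.13 to 0.55) in BC, from 342 to 453 UMIs. Noct thus lay above 0 in the 3 types where it could be read. Usp2, a ubiquitin protease that acts on clock proteins, lay above 0 in all 5 types, at 0.28 in rods, 0.24 in cones, 0.27 in BC, 0.54 (0.23 to 0.86) in AC and 0.28 in MG. Each of those intervals was above 0.

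Bhlhe41, a repressor that binds E-boxes, went from 1542 UMIs (118 CPM) to 1201 UMIs (82.9 CPM) in rods, a ratio of -0.51 (-0.62 to -0.40). It lay below 0 in the other 4 types too, at -0.23 in cones, -0.04 in BC, -0.16 in AC and -0.17 in MG. Tef, a D-box activator related to DBP, ran from -0.15 in rods to 0.23 (0.09 to 0.38) in MG. Nfil3, the D-box repressor, had -0.04 in rods and -0.02 in BC. Npas2, which can replace CLOCK, had enough UMIs only in BC, with 102 and 92 UMIs and a ratio of -0.21 (-0.64 to 0.21).

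**Figure D4:**
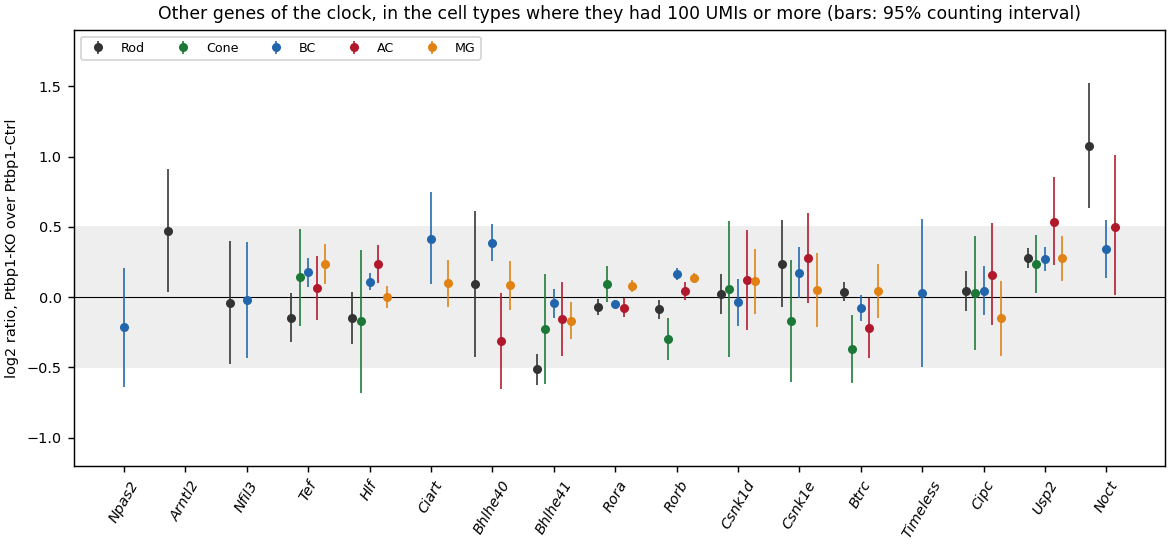
Log2 ratio of Ptbp1-KO over Ptbp1-Ctrl (vertical axis) for the other clock genes reported, 1 point per cell type with at least 100 UMIs over both libraries, coloured by type, with bars for exact 95% counting intervals and a grey band for ratios under 0.5 in size. Noct in rods stands highest at 1.07, Bhlhe41 in rods lowest at -0.51, and the 5 points of Usp2 all lie above 0.

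Genes that respond to hormones, temperature and handling were read beside them. Fkbp5, a chaperone partner induced by glucocorticoids, went from 312 UMIs (52.8 CPM) to 642 UMIs (126 CPM) in MG, a ratio of 1.26 (1.06 to 1.46), and Zbtb16, another hormone-induced gene, had 0.66 (0.45 to 0.86) there. In MG 2 of the 5 genes of that list were higher past the fold, against 4.5% of all genes. The list had a median of 0.12 there, while Tsc22d3 was at 0.07 (-0.18 to 0.32) and Sgk1 at -0.30 (-0.48 to -0.12). Of the same list 1 of 5 was higher past the fold in BC (Zbtb16, 0.53), against 2.94% of all genes. None of 4 in rods, of 1 in cones or of 4 in AC was past it, against 9.07%, 6.95% and 5.81% of all genes. Counts this small move by a single gene. These are the MG in which Per1 and Per2 were higher, and the part of the hormone response in that difference was not tested.

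Immediate-early genes, which dissociation can induce, were above 0 for 10 of 10 in MG, with the highest at 0.39 (Klf6). Their median in MG was 0.09, against -0.007 over all genes. Their medians were -0.26 in rods, 0.18 in cones, 0.10 in BC and -0.03 in AC. The 1 gene past the fold in any type was Egr1 in BC, 1 of 10 there against 2.94% of all genes higher. It went from 102 to 244 UMIs, at 1.19 (0.85 to 1.54). Nr4a1 in BC was at 0.38 and Fos in cones at 0.46. The cold-induced RNA-binding genes Cirbp and Rbm3 had no ratio past the fold, and the largest was that of Rbm3 in MG, at -0.32 (-0.49 to -0.14). Of 8 transcripts known to cycle in the retina, 7 were in the table and 5 had enough UMIs in each type. Their medians were -0.20 in rods, -0.28 in cones, -0.29 in BC, -0.05 in AC and -0.32 in MG. Past the fold were Gnaz in cones (-0.55) and Kcnv2 in MG (-0.57), both lower. Each was 1 of 5, against 3.28% of all genes lower in cones and 3.25% in MG. Guca1b, at -0.42 in BC and MG and -0.20 in rods, and Kcnv2 are photoreceptor transcripts. Rod markers were below 0 for 7 of 7 in BC and in MG, and for 6 of 7 in rods, in cones and in AC. They summed to 7814 and 6565 CPM in BC, 7672 and 5964 CPM in MG and 48137 and 43077 CPM in rods. Drd4, the dopamine receptor of photoreceptors, was at 0.03 (-0.04 to 0.09) in rods and -0.38 (-0.61 to -0.15) in cones.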

How the data were processed

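Single-cell libraries of 1 Ptbp1-Ctrl and 1 Ptbp1-KO retina were analysed. Per the labels the authors used 10x 3′ v3.1 chemistry, Cell Ranger 7.0.1, mm10 and Seurat 4. The deposited counts were raw UMI counts of 25778 genes in 30943 cells, and the deposited cell table gave totals, the percent of mitochondrial UMIs, clusters and cell types, taken as deposited. A further 2 columns of cell values were not used. Whether intronic reads were counted was not given in the sources used here, and the kit reads 3′ ends.

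UMIs were summed per library and cell type and given as CPM with exact Poisson intervals (scipy 1.17.1). Ratios had exact conditional binomial intervals, tested on simulated data. The count test named for such tables (edgeR, quasi-likelihood) needs replicates and was not run. TMM factors came from edgeR 4.0.16. Doublets were not called. Alternatives were TMM, median-ratio factors, thinning to 1000 UMIs without the shallower cells, leaving out the deepest 5% of cells, subtraction of free RNA, the largest cluster, and other thresholds.

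All 10 members were named, of the other clock genes Npas2, Nfil3, Tef, Bhlhe41 and any past the fold, of other lists up to 4 with the largest ratio, and the 5 genes most like Dbp and Arntl, among genes averaging 20 CPM or more with 50 UMIs in each library. Some items that these rules select are not reported here. The members and lists were chosen with earlier results of these data known. Gene positions came from GENCODE on the mm10 build.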

Additional observations from a re-analysis of the deposited data

Results flagged for a closer look

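The ratio of Nr1d1 lay on opposite sides of 0 in BC (0.11) and rods (-0.25), and that of Dbp in BC (0.11) and cones (-0.91), with counting intervals that lay on either side of 0 in each pair. With 1 library per genotype the difference between the types was not tested. The sides were kept under each alternative that gave a value, where Nr1d1 ran from 0.01 to 0.12 in BC and from -0.47 to -0.25 in rods.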

How the results depend on the processing

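No paired analysis was possible because each genotype had 1 library, and no replicate could be left out. Under the alternatives 263 member ratios stayed within their interval and 18 did not, and sign changes were 10 of 49 with thinning and 5 of 50 with TMM. Subtracting the library profile left no interpretable cone value, as cones share rod markers, with medians of -1.93 (E-box and D-box) and 1.22 (RORE) and 0 members past the fold. The rod E-box and D-box median was -0.35 in the largest rod cluster, and the RORE median -0.062 (TMM) and -0.080 (median-ratio). That alternative was not run in cones, which have 1 cluster.

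Members past the fold became 0 with thinning in cones, AC and MG, 0 in AC with the library profile, and 1 in MG with TMM and with median-ratio factors. In cones they became 3 with TMM, with median-ratio factors and without the deepest cells, where Per3 was at -0.52, -0.53 and -0.52. With a fold of 1 they were 0 in rods, cones, AC and MG, with 0.3 they were 4 in cones and 1 in BC, and at 200 UMIs they were 1 in cones, 0 in AC and 1 in MG. All genes past the fold numbered 1009, 384, 561, 503 and 804 in rods, cones, BC, AC and MG. They became 2380, 1295, 1758, 1799 and 2353 with a fold of 0.3, and 199, 35, 97, 41 and 120 with 1. They were 1707, 914, 1044, 1065 and 1324 at 50 UMIs, 563, 135, 281, 188 and 463 at 200, and 10267, 8437, 8701, 9176 and 8531 at 1 UMI. With thinning they were 207 in cones, 203 in AC and 496 in MG, from fewer genes tested.

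Depth left under 100 UMIs for Per2 in rods, cones and AC, for Per1 and Cry2 in cones, and for all 10 members in RGC and HC.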
